A study of Mus musculus with 2 samples.

Results

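The collagens of cartilage were examined in ATDC5, a mouse cell line derived from a teratocarcinoma that forms cartilage nodules in culture. The set held 8 genes, Col2a1, Col9a1, Col9a2, Col9a3, Col10a1, Col11a1, Col11a2 and Col27a1, out of 20657 genes with a named probe on the array. Members were the non-control spots whose transcript accession belongs to one of these genes, which gave 9 probes of 1 spot each. Both groups were stable ATDC5 lines with a transgene induced by doxycycline, GFP in one and A-CEBP in the other. A-CEBP is a dominant-negative protein: it dimerises with factors of the C/EBP family and blocks their binding to DNA. Both lines received doxycycline at 2 µg/mL for 2 days and were then differentiated for 3 weeks with ITS, a supplement of insulin, transferrin and selenite. Each group was 1 sample on 1 array, which leaves the variation between cultures unmeasured, and no difference between the groups was tested. The sources used here do not say whether each line was a single clone.

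Cartilage collagens act at different places in the matrix. Type II collagen, encoded by Col2a1, forms the bulk of the thin cartilage fibril, and type XI chains lie within that fibril and limit its width. Type IX collagen, a heterotrimer of the products of Col9a1, Col9a2 and Col9a3, decorates the fibril surface and links it to other matrix proteins. Type X collagen, encoded by Col10a1, forms a network around hypertrophic chondrocytes, and type XXVII, encoded by Col27a1, is a fibrillar collagen of the growth plate.

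All 7 members that were well above background on both arrays were higher in the A-CEBP sample, by 1.21-fold to 1.96-fold. The hypertrophic collagen gene Col10a1 had the largest difference and Col11a2 the smallest. Of these 7, 0 were at least 2-fold higher, where 1.26% of 13860 genes were, and none was at least 2-fold lower, where 1.7% were. At 1.5-fold, 3 of the 7 were higher (Col10a1, Col11a1 and Col9a1), or 42.9% against 4.7% of all genes, and none was lower against 3.8%. That count was chosen for a check under each alternative after its value was seen: it was 2 with cyclic loess, with the authors' deposited values and with the mean over probes, which left Col9a1 out, and 4 with spike-in scaling, which added Col2a1 where 11.2% of all genes were as high, and without the detection filter, which added Col9a3 as an 8th gene. Being higher at any size was common, at 59.1% of all genes. The median log2 difference of the 7 was 0.43, beside 0.05 over all genes, whose quartiles were -0.1 and 0.19. The remaining member, Col9a3, was well above background on the A-CEBP array only.

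Signals are given in units of processed intensity, with the error that the scanner software attaches to each spot. Log2 levels are relative to the 75th percentile of each array, so that 0 marks that percentile, and differences are A-CEBP minus GFP. That percentile was 872 units on the GFP array and 906 on the A-CEBP array. Spots well above background made up 54.6% and 58.0% of 59305 non-control spots, and no spot was saturated. The scanner errors cover the measurement of 1 RNA sample and not the variation between cultures. For the member probes well above background on both arrays, the error was the same rounded percentage of the signal throughout. Only the dimmer Col9a1 probe departed from this. The error was thus 0.2 on the log2 scale for each of the others, and it is not a spread measured separately for each probe. Replicate spots of 1 probe, available for 291 other probes, gave a second measure: the SD of their log2 differences fell from 0.2 among the dimmest to 0.05 among the brightest.

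**Figure D1:**
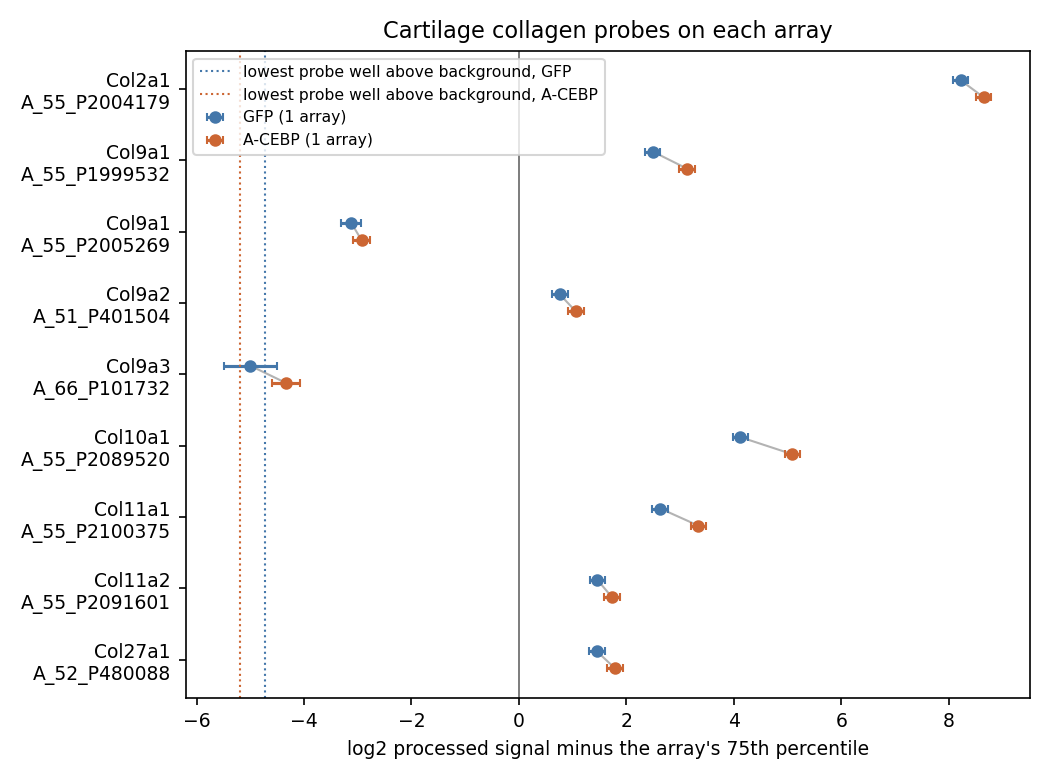
Level of each cartilage collagen probe on the GFP and the A-CEBP array, as log2 processed signal minus the 75th percentile of the array, with 1 array per group. Bars are the scanner's error for the spot and dotted lines mark the lowest probe well above background; every A-CEBP point lies to the right of its GFP point, and the Col9a3 point of the GFP array lies left of the line at -4.73.

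Among the fibril-forming chains, Col2a1 read 260748 ± 26075 units (scanner error) with GFP and 364462 ± 36446 with A-CEBP. The A-CEBP reading was the higher, by 1.35-fold (log2 difference 0.43 ± 0.20, scanner error). This probe was far brighter than the array's 75th percentile, at log2 levels of 8.22 and 8.65. Its unsubtracted spot signal stood at 31.9% and 44.5% of the scanner's saturation value, so neither reading was capped. The Col2a1 probe is assigned to a single transcript accession, NM_001113515, and the splice forms of this gene were not told apart. The difference was 2.1 times its scanner error.

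The 2 type XI chains in the set lie in the same fibril. Col11a1 read 5395 ± 540 units with GFP and 9179 ± 918 with A-CEBP, which is 1.64-fold (log2 0.71 ± 0.20). Col11a2 read 2396 ± 240 and 3014 ± 301 units, which is 1.21-fold (0.28 ± 0.20). The A-CEBP reading was the higher for both, and the difference was 3.5 times the scanner error for Col11a1 and 1.4 times for Col11a2. The gap between these partner chains, 0.44 ± 0.29 on the log2 scale, was under 2 combined scanner errors. Col27a1 read 2384 ± 239 units with GFP and 3125 ± 313 with A-CEBP, 1.26-fold higher (0.34 ± 0.20). Its difference was 1.6 times the scanner error and lay close to that of Col11a2.

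The stretches upstream of both type XI genes are shown because their products are partner chains. They are the 250 bases before the RefSeq start in the assembly GRCm38.p6, on the plus strand and written 5′ to 3′, with capitals on every match to the motifs searched, which are spelled out further on. Col11a1 lies at chr3:114030290-114030539 and Col11a2 at chr17:34038888-34039137.
Col11a1: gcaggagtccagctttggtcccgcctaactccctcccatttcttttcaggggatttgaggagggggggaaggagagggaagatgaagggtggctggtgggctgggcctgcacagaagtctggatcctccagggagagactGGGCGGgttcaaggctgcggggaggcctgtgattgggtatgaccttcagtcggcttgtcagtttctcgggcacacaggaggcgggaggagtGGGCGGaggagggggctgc
Col11a2: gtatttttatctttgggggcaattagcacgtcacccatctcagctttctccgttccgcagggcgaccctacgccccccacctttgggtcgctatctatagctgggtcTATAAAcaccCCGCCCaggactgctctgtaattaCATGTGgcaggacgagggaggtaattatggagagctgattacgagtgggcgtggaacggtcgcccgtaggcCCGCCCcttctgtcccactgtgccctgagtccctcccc
The Col11a1 stretch held the GC box GGGCGG with its first base at -110 and -19, counted back from the start, and no TATAAA. The Col11a2 stretch held TATAAA at -143, a GC box on the other strand at -133 and -38, and the E-box CATGTG at -109.

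The type IX genes, whose products share 1 trimer, could be compared only in part. The brighter Col9a1 probe read 4910 ± 491 units with GFP and 7909 ± 791 with A-CEBP, 1.55-fold higher (log2 0.63 ± 0.20). Col9a2 read 1473 ± 147 and 1888 ± 189 units, 1.23-fold higher (0.30 ± 0.20). For Col9a1 the difference was 3.1 times its scanner error, and for Col9a2 1.5 times. The gap between the Col9a1 and Col9a2 differences, 0.33 ± 0.29, was under 2 combined errors.

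The second Col9a1 probe was dim. It read 100.2 ± 12.8 units with GFP and 118.6 ± 13.4 with A-CEBP, a log2 difference of 0.19 ± 0.25. That is within the scanner error, and the direction of this probe depended on how background was removed. Its unsubtracted spot signal was 181 units on the GFP array and 176 on the A-CEBP array, over local backgrounds of 43.0 and 39.5. With normexp background its difference was -0.06. Both Col9a1 probes are assigned to the same accession, NM_007740, and where they lie in the transcript is not given in the files.

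Col9a3 was well above background on 1 array only. Its probe read 27.3 ± 9.26 units on the GFP array, not well above background, and 44.7 ± 8.19 on the A-CEBP array, which passed that mark. Against the lowest signal well above background on the GFP array, the A-CEBP reading of Col9a3 was 1.31-fold higher. That lowest signal belongs to another probe and is not the limit for this spot, so 1.31-fold is no lower bound. This value takes no account of error in either reading. With normexp background the readings of Col9a3 differed by 0.12 on the log2 scale, against 0.66 in the main processing. The lowest log2 level that counted as well above background was -4.73 on the GFP array and -5.19 on the A-CEBP array, and the mark was thus easier to reach on the latter.

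Col9a1 has 2 starts in the RefSeq table, and both upstream stretches are shown because the gene has more than 1; the gap between its 2 probes, 0.45 ± 0.32 on the log2 scale, was under 2 combined scanner errors. In GRCm38.p6, plus strand, the first lies at chr1:24177360-24177609 and the second, within the gene, at chr1:24194953-24195202. Cartilage is known to use the first start, which gives the long form of the protein.
Col9a1 first start: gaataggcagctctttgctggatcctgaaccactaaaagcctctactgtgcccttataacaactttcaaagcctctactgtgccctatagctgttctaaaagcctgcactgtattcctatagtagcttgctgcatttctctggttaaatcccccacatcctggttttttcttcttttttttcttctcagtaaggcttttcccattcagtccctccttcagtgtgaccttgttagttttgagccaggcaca
Col9a1 second start: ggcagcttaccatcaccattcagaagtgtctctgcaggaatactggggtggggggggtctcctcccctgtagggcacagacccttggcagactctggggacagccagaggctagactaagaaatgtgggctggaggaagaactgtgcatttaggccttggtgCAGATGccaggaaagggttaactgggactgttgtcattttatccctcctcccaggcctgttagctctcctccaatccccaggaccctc
No motif searched matched before the first start, and the E-box CAGATG matched at -88 before the second. Which start the measured transcripts came from was not determined.

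Col10a1, the gene of the hypertrophic stage, read 15171 ± 1517 units with GFP and 30901 ± 3090 with A-CEBP. The A-CEBP reading was 1.96-fold higher (log2 difference 0.97 ± 0.20), 4.8 times the scanner error and just under the 2-fold rule. Of 10 alternatives in processing, 3 brought it past that rule, and its range over them was 1.87-fold to 2.28-fold. Keeping outlier spots or dropping the detection filter, both among the 10, could not move this probe value. Of 28 pairs formed from the 8 probes well above background on both arrays, 4 differed by over 2 combined scanner errors. All 4 set Col10a1 above another probe, namely those of Col11a2 (gap 0.70 ± 0.29), Col9a2 (0.67 ± 0.29) and Col27a1 (0.64 ± 0.29) and the dim one of Col9a1 (0.78 ± 0.32). Against Col2a1 the gap was 0.54 ± 0.29, and against Col11a1 0.26 ± 0.29, both under 2 combined errors. The combined error was the same 0.29 for every pair without the dim Col9a1 probe, so for those pairs the mark was a fixed gap.

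The stretch upstream of Col10a1 is shown because this gene had the largest difference, at chr10:34389731-34389980 in GRCm38.p6, plus strand.
Col10a1: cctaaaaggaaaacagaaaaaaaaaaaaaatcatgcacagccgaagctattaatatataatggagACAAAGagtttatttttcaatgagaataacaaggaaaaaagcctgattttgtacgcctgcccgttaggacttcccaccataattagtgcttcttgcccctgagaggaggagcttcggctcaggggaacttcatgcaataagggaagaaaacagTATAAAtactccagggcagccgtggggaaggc
It held TATAAA at -32 and the SOX-type motif ACAAAG at -185. Among the members' windows it was the poorest in G and C.

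**Figure D2:**
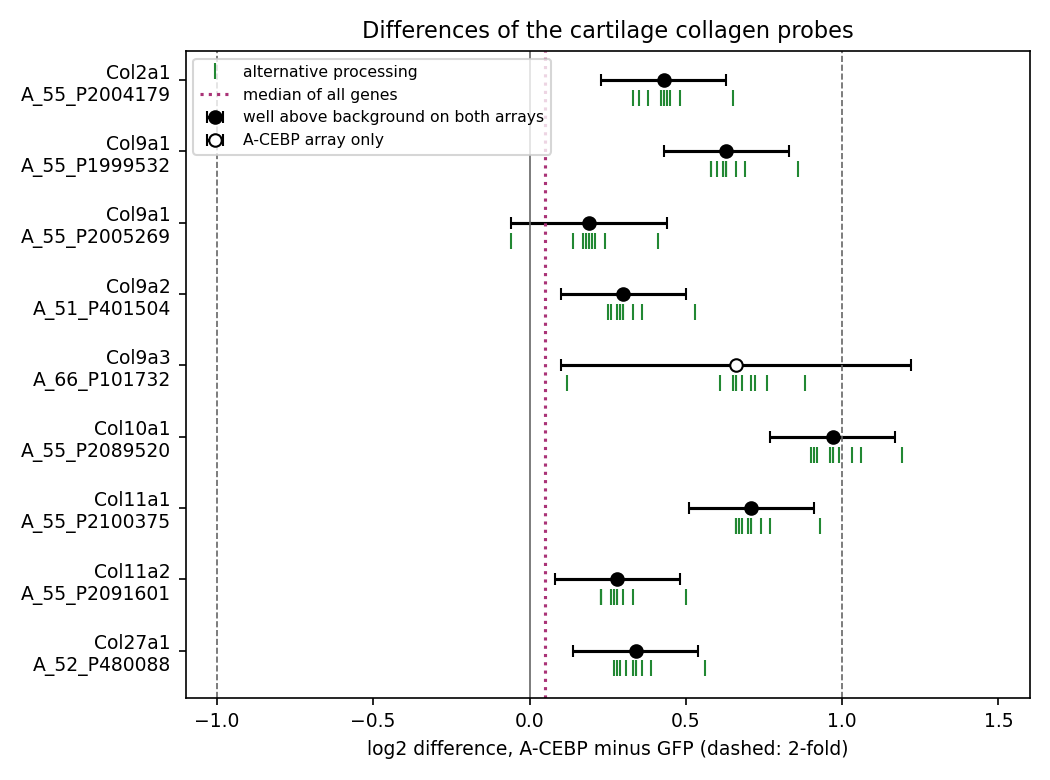
Log2 difference (A-CEBP minus GFP) of each cartilage collagen probe, with the scanner's error as bars and each alternative processing as a green tick. The open point, Col9a3, was well above background on the A-CEBP array only; Col10a1 at 0.97 lies next to the dashed 2-fold line, and 1 tick of the dim Col9a1 probe, at -0.06, falls below 0.

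Measured against replicate-spot noise of similar brightness, 7 of the 8 probes seen on both arrays differed by over 2 SD, the exception being the dim Col9a1 probe. Measured against the scanner's error, which is wider, 4 did: those of Col10a1, Col11a1, Col2a1 and the brighter Col9a1 probe. That error was the same for all of the 8 but the dim Col9a1 probe, so for them the scanner mark was a fixed difference. The replicate-spot SD was 0.05 among the brightest probes, so small differences pass that mark. The share of all genes past either mark was not computed, so neither count sets the members apart from other genes. Spots within 2 rows and columns of each member, 8 to 15 of them per member, had median differences between -0.08 and 0.12. Single neighbouring spots reached above the member's own difference for 5 of the 9 probes. In bulk RNA such as this, fewer cells of a type and less RNA per cell cannot be told apart.

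**Figure D3:**
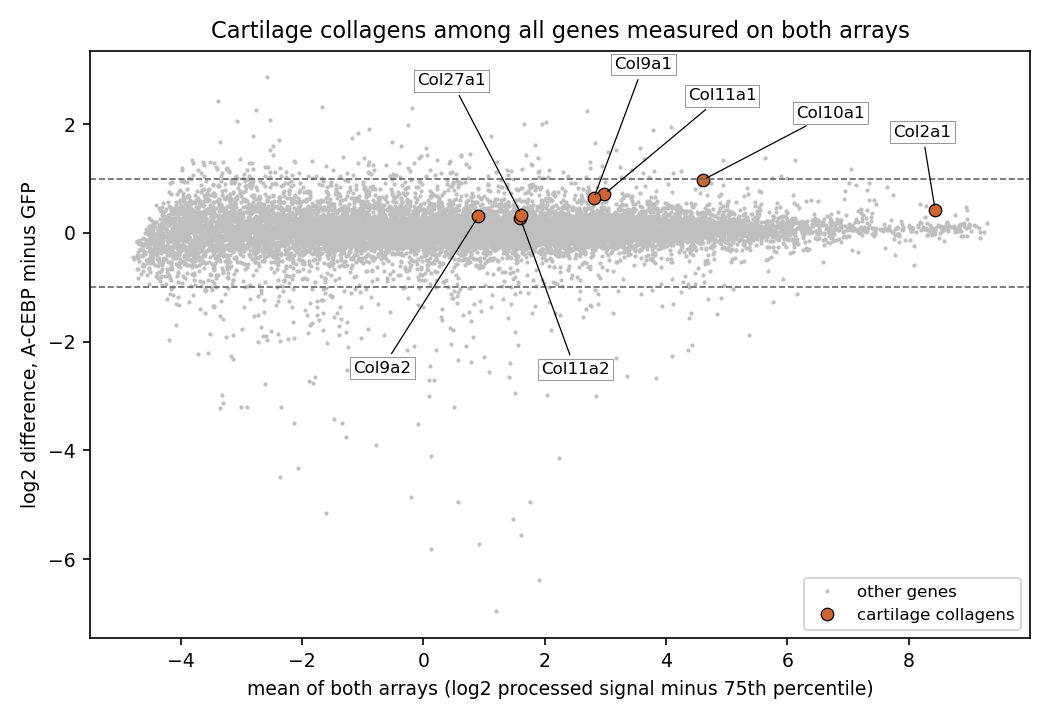
Log2 difference (A-CEBP minus GFP) against the mean log2 level of both arrays for the 13860 genes well above background on both, grey, with the 7 measured cartilage collagens in orange. The collagens lie between 0.28 and 0.97, above 0 and below the dashed 2-fold line; Col2a1 lies at the bright end.

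Promoter windows of 300 bases, from 250 before to 50 after the start, were found in the RefSeq table for 6 of the 8 members, 7 windows in all; Col2a1 and Col9a3 were not matched. Motifs were searched on both strands, and a match is a description of the letters only. The palindrome bound by C/EBP factors, TTGCGCAA, was in 0 of the 7 windows and in 0.183% of 32851 windows of the table. Its looser form, TTNNGNAA, which takes in the palindrome, was in 0 of the 7 and in 40.7% of all. The SOX-type motif AACAAT was in 0 of the 7 (10.7% of all) and ACAAAG only in that of Col10a1 (18.7% of all). TATAAA was in those of Col10a1 and Col11a2 (13.6% of all).

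GC boxes, GGGCGG, were found in the windows of Col9a2, Col11a1, Col11a2 and Col27a1, 4 of the 7, against 35.7% of all windows. The E-box CANNTG was in those of Col9a2, Col11a2 and Col27a1 and the second one of Col9a1, against 72.3% of all. The G and C share was 44.3% for Col10a1 and 47.3% for the first start of Col9a1, and between 55.7% and 62.3% for the other 5 windows, beside a median of 52.7% over the table. The first Col9a1 window held 0 CpG pairs and that of Col27a1 18. Against the quartiles of the table, 45.7% and 61.7%, the Col10a1 window lay just below the lower one and that of Col11a1, at 62.3%, just above the upper one, while both Col9a1 windows lay between them.

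For the lists that follow, the shares over all 13860 genes were 59.1% higher at any size, 1.26% at least 2-fold higher and 1.7% at least 2-fold lower. Other collagens were mixed. Of 7 further fibrillar chains, 5 were higher, none by 2-fold, and 1, Col5a3, was at least 2-fold lower, with a median of 0.26. Col5a3, a minor chain of type V collagen, differed by -1.08, or -0.86 with spike-in scaling. Col5a1, whose product is close kin to that of Col11a1, differed by 0.50. Col1a1, the main chain of bone and skin collagen, differed by 0.36 and Col24a1 by -0.40. Of 6 measured members of the list of other network and fibril-associated collagens, 2 were at least 2-fold higher and none lower, with a median of 0.55. These were the type VIII network chains Col8a1 (1.19) and Col8a2 (1.11), while Col14a1 and Col22a1, which associate with fibrils, differed by 0.75 and 0.34.

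The genes of collagen chain modification and folding were mostly higher. Of 18 measured, 2 were at least 2-fold higher and none 2-fold lower, with a median of 0.30. Above 0 were 16 of the 18, against 59.1% of all genes. Colgalt2, a collagen galactosyltransferase, differed by 1.06, and the prolyl 4-hydroxylase subunit gene P4ha2 by 1.00, at the edge of the 2-fold rule. Colgalt2 was at 0.93 with normexp background, and P4ha2 fell under the rule in 4 of 8 alternatives, down to 0.91. The prolyl 3-hydroxylase gene P3h2 and the lysyl hydroxylase gene Plod2 differed by 0.93 and 0.81, or 1.16 and 1.03 with spike-in scaling. Among 17 genes of procollagen export, cleavage and cross-linking, 1 was at least 2-fold higher and none lower, with a median of 0.15. That gene was Pcolce2 (1.17), an enhancer of C-propeptide cleavage. The lysyl oxidase genes Loxl4 and Loxl3 and the export gene Sec24d differed by 0.77, 0.38 and 0.34.

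Of 14 measured genes whose products bind or surround the type II and IX fibril, 3 were at least 2-fold higher and none 2-fold lower. The list's median was 0.32, and 10 of the 14 were above 0, against 59.1% of all genes, with differences from -0.3 to 1.42. Past 2-fold were the link protein gene Hapln1 (1.42), the aggrecan gene Acan (1.30) and the fibril-binding proteoglycan gene Fmod (1.02, or 0.97 with the authors' deposited values). Ucma, of the growth plate matrix, differed by 0.72. Epyc, a small proteoglycan gene, was seen on the A-CEBP array only, near background (log2 levels of -5.89 with GFP and -4.34 with A-CEBP). Against the lowest signal well above background on the GFP array, its A-CEBP reading was 1.31-fold higher. That value is no lower bound and takes no account of error in either reading.

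Among 23 regulators of cartilage collagen transcription, 1 was at least 2-fold higher and none 2-fold lower. The list's median was 0.48, and 18 of the 23 were above 0, against 59.1% of all genes, with differences from -0.25 to 1.56. Sox9, the factor that switches on Col2a1, Col9a1 and Col11a2, was 1.52-fold higher (0.61). Its partners differed little: Sox6 by 0.17 and Sox5 by -0.06, which turned to 0.17 with spike-in scaling. Ihh, the hedgehog ligand of prehypertrophic cells, differed by 1.56 and was the gene past 2-fold. The osteoblast and late chondrocyte factor Sp7 differed by 0.89, Foxa3 by 0.87 and Dlx5 by 0.76. Over 8 alternatives Sp7 ranged from 0.73 to 1.12 and Foxa3, which was dim, from 0.46 to 1.09, both highest with spike-in scaling.

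Of 6 measured collagen receptors, none was 2-fold apart and all were higher, although Itgb1 turned below 0 with cyclic loess, with a median of 0.23. The integrin chain gene Itga11 differed by 0.79 (1.01 with spike-in scaling), the discoidin receptor genes Ddr1 and Ddr2 by 0.38 and 0.18, and Mrc2 by 0.28. All 6 measured collagen-cleaving proteases were lower, although Mmp2 turned positive with spike-in scaling, and 2 were at least 2-fold lower, with a median of -0.34. The collagenase gene Mmp13, which cuts type II collagen, differed by -1.07 (-0.85 with spike-in scaling), and Ctsk, for a cysteine protease, by -1.02 (under the rule in 4 of 8 alternatives, as near 0 as -0.69). Mmp14 and Ctsl differed by -0.41 and -0.28.

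**Figure D4:**
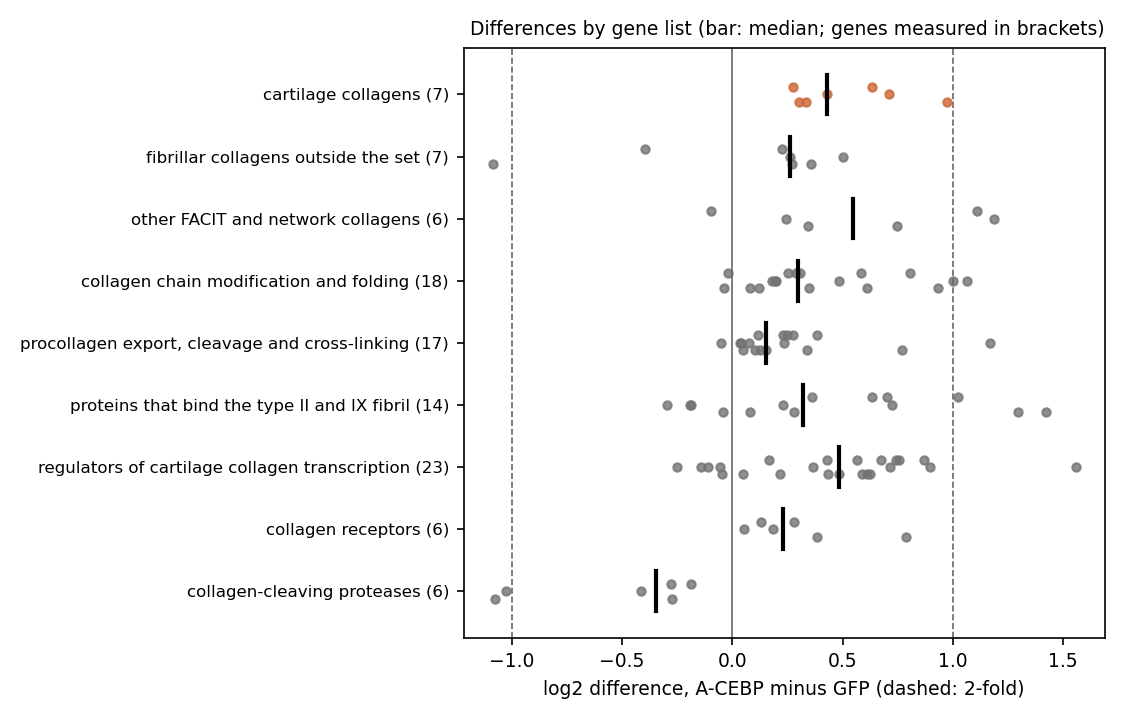
Log2 differences (A-CEBP minus GFP) of single genes by list, with the number of genes measured on both arrays in brackets and the list's median as a bar. The cartilage collagens lie between 0.28 and 0.97 with a median of 0.43, and the collagen-cleaving proteases are the list that lies below 0, between -1.07 and -0.19.

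Markers were read to check the label and other cell types. Of 8 chondrocyte markers, 7 were well above background on both arrays (all but Matn3). Their summed signal was 62.4 times the 75th percentile with GFP and 121 times with A-CEBP. Snorc, the brightest on both arrays (log2 levels of 4.95 and 6.32), weighed most in these sums. Comp, the next brightest, differed by -0.04, or 0.18 with spike-in scaling. Beside the higher collagens, 4 of these 7 markers were at least 2-fold higher with A-CEBP, namely Hapln1, Snorc, Acan and Cnmd. Cnmd, at 1.02, fell under the rule in 3 of 8 alternatives, down to 0.86. All 6 osteoblast markers with a probe were well above background on both arrays, with summed signals of 457 and 454, 1 of them (Dmp1) at least 2-fold higher and none lower. Of 8 fibroblast and perichondrium markers 7 were so (all but Tnmd), with sums of 38.5 and 41.4; 3 were at least 2-fold lower (Pi16, Ly6a and Fap) and 1 higher (Cd34). Fap was under that rule, at -0.87, with spike-in scaling. Macrophage markers gave 4 of 7 with sums of 24.5 and 27.6, and Ptprc, Adgre1 and Tyrobp were not well above background on either array. Itgam, the brightest of the 4 (log2 levels of 4.43 and 4.67), weighed most in the macrophage sums. The median difference of the 4 was -0.48, and the one higher was Itgam (0.23), beside Csf1r (-0.14, or 0.08 with spike-in scaling), Lyz2 (-0.83) and Cd14 (-0.84). Other probes of Itgam and Csf1r went the other way, down to -0.57 for Itgam and up to 0.36 for Csf1r. Muscle markers gave 2 of 7 with sums of 0.534 and 1.20, without Myod1, Myog, Myh3, Mylpf and Ckm on either array, and Mb was at least 2-fold higher. Adipocyte markers gave 2 of 6 with GFP and 4 of 6 with A-CEBP, with sums of 8.78 and 7.51. Cidec and Lep were not well above background on either array, and Fabp4 was at least 2-fold lower. Adipoq and Plin1, so marked with A-CEBP only, read near background. Their log2 levels were -4.72 with GFP and -4.74 with A-CEBP for Adipoq, and -4.87 and -4.31 for Plin1. As for Col9a3, the mark was easier to reach on the A-CEBP array. Markers past 2-fold were named after their values were seen, and some lists share genes. The part of other cell types in the collagen differences was not tested.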

How the data were processed

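RNA was labelled with Cy3 from 0.1 µg total RNA per sample, per the labels, and hybridised to 1-colour Agilent arrays. The deposited scanner files give each spot's intensity, linear, from which Agilent Feature Extraction 10.10.1.1 had removed background and a spatial trend, per the file headers and the submitters' processing notes. Both arrays came from 1 slide and 1 scan. The authors' deposited table holds the same intensity multiplied by 1 constant per array, 1.24 for GFP and 1.15 for A-CEBP, with column medians of 70.9 and 67.4. The sources used here do not say how these constants were set.

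From these, log2 of the processed signal minus each array's 75th percentile was computed (Python 3.11.15). Control spots and 293 outlier spots were left out, and spots of a probe averaged. A probe was well above background when over 50% of its spots were so marked. Of 55671 probes, 27229 matched 1 RefSeq gene by accession. A gene's value is that of its brightest probe well above background on both arrays. With 1 array per group, differences are described by a 2-fold rule and measurement error, and having only 2 arrays limits their precision. Named genes are all members, up to 4 of each list with the largest differences, up to 2 of a list seen on 1 array only, and Sox9, Sox5, Sox6, Acan and Col1a1. The members and lists were chosen with earlier results of these data known. Further marker genes are named with their lists. No gene was ranked by likeness of pattern, since 2 arrays give 1 difference per gene. Alternatives changed the scaling, background, source, filters and probe rule, with limma 3.58.1 for normexp (offset 50), quantile and cyclic loess; normexp used the median spot signal. No protein or probe sequences were used here.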

Additional observations from a re-analysis of the deposited data

How the results depend on the processing

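The 7 measured members were higher in the A-CEBP sample under each of the 11 alternatives in scaling, background, source, filters and probe rule, and none reached 2-fold lower. The count at least 2-fold higher was 0 in the main processing and 1 (Col10a1) without scaling, with spike-in scaling and with normexp background; a 1.5-fold rule gave 3, and 2 to 4 when joined with each other alternative, a check chosen after seeing the data. Their median of 0.43 moved to 0.65 with spike-in scaling, under which the median of all genes was 0.27 instead of 0.05. The margin of the members over all genes was 0.38 in both. This was fixed in advance, since scaling by 1 constant per array moves all genes alike. The same holds for the other alternatives that rescale each array by 1 constant, the authors' deposited values among them. Over the other alternatives that margin was 0.30 to 0.54, the last without the detection filter, which counts Col9a3. The dim Col9a1 probe turned to -0.06 with normexp background. Of 90 probe values compared, 69 moved by less than the measurement spread, 20 moved by more and 1 changed sign. The spread was the replicate-spot SD at the probe's brightness or, for Col9a3, its scanner error of 0.56. Among the 69 are all values with outlier spots kept or without the detection filter. These could not move, since each member probe has 1 spot without an outlier flag and the filter acts on genes only. The context lists held 12 genes at least 2-fold apart, and 9 to 15 under the alternatives. Col5a3, P4ha2, Colgalt2, Fmod, Mmp13, Ctsk, Cnmd and Fap lost the 2-fold rule under at least 1 of 8 alternatives in scaling, background or source, and P3h2, Plod2, Foxa3, Sp7, Itga11 and Acta1 gained it with spike-in scaling. No paired analysis was possible because each group had 1 array. Col9a3 and the dim Col9a1 probe read near background, with scanner errors of 0.56 and 0.25 on the log2 scale.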
